A study of Mus musculus with 6 samples.

Results

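The mitochondrial solute carriers of the Slc25a series were taken as every gene whose current mouse symbol starts with Slc25a and that had a probe on the array, and they numbered 47 genes with 79 of the 56605 probes. A gene counted as detected when at least 3 of the 6 arrays flagged a probe of it as well above background, which held for 40 of the 47 genes and 65 of their probes, against 25005 genes and transcripts detected and tested in all. RNA came from the quadriceps, a thigh muscle, of male mice 9 weeks old carrying the human androgen receptor with 97 CAG repeats (AR97Q) on a C57BL/6J background, a model of spinal and bulbar muscular atrophy. The Exercise group (3 mice) ran in a forced wheel with a speed of 5 m/min, in sessions of 60 min held 5 times weekly over the 4 weeks that began at 5 weeks of age, and muscle was taken the day after the last bout. The Sedentary group (3 mice) did not exercise. All 6 mice carried the transgene and each array held RNA of 1 mouse. No wild-type array was analysed here, so the values compare exercise with rest within the disease model and not disease with health.

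Carriers of this family sit, with few exceptions, in the inner mitochondrial membrane and exchange or move one kind of solute each between the cytosol and the matrix. In skeletal muscle they bring in ADP, phosphate and acylcarnitines, send out ATP, and run the malate-aspartate shuttle that carries reducing equivalents of glycolysis into the mitochondrion. They are made in the cytosol and inserted through a dedicated import route with small chaperones in the intermembrane space.

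The promoters of 3 carriers of the ATP-making machinery are shown because the adenine nucleotide translocases Slc25a4 and Slc25a5 had fold changes of opposite sign, and the phosphate carrier Slc25a3 had that of Slc25a4. Each is a RefSeq window of GRCm38.p6 from 250 bases before to 50 bases after the annotated start, on the gene's own strand. Capitals mark the motif letters found by the searches described next. The windows are chr8:46211013-46211312 on the minus strand for Slc25a4, chrX:36795347-36795646 on the plus strand for Slc25a5 and chr10:91123918-91124217 on the minus strand for Slc25a3.
Slc25a4: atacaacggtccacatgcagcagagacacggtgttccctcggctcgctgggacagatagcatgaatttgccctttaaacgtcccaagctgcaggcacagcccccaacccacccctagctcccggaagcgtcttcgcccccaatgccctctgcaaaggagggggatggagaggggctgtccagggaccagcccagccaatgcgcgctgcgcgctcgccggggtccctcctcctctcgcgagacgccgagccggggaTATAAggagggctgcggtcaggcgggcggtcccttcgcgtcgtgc
Slc25a5: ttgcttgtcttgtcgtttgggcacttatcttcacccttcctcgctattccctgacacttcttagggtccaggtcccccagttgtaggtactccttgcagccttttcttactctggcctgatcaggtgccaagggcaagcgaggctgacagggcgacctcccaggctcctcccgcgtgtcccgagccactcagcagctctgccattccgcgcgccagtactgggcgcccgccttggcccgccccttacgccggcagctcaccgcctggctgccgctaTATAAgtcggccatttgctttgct
Slc25a3: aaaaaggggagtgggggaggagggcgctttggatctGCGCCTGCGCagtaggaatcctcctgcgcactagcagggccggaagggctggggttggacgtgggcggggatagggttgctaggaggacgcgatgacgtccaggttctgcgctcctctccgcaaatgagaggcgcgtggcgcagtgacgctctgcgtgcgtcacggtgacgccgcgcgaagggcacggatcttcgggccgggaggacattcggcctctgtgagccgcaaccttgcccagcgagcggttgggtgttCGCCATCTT

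A RefSeq promoter was matched for 36 of the 47 genes, with 46 windows in all. The NRF1 element, searched on both strands as a 10-letter pattern with 1 free base, was found in 2 of the 46 windows (4.35%), those of Slc25a3 and Slc25a31, and in 4.6% of all 32851 windows. The YY1 element AANATGGCG, on both strands, was found only in the window of Slc25a3 (2.17% of the 46, against 2.38% of all). The ERR element TNAAGGTCA was in 0 of the 46 windows and 1.28% of all, and the cAMP response element TGACGTCA was in 2 of the 46, those of Slc25a25 and Slc25a36, and 1.79% of all. A search for the letters TATAA on the gene's strand was added after the sequences were read. It was first limited to starts 40 to 20 bases before the annotated start, where it found 0 of the 46 windows against 3.52% of all, and was then widened to the whole window, where it found 3 of the 46 (6.52%), those of Slc25a4, Slc25a5 and Slc25a21, against 17.5% of all. In Slc25a4 and Slc25a5 the letters lie after the annotated start, at offsets of 5 and 26 bases. These letter matches describe the windows and were not tested as binding sites.

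Of the 40 detected carriers, 7 were higher and 1 was lower in exercised muscle at a Benjamini-Hochberg adjusted p under 0.05 in limma, fitted across all 25005 genes and transcripts. Of all genes tested, 17.6% were called, 11.5% higher and 6.12% lower, so the 8 carriers called are a share close to that of all genes. Both markers of the family, Slc25a4 and Slc25a20, were well above background on all 6 arrays. The genes called higher that are described here were Slc25a47, Slc25a26, Slc25a4, Slc25a11, Slc25a3 and Slc25a28, and the gene called lower was Slc25a10. None of the 40 reached an absolute log2 fold change of 1 together with the call, which 2.78% of all genes did. The log2 fold changes, exercise over sedentary, ran from -0.73 to 0.81 with a median of 0.13, against 0.03 over all genes tested. The 3 exercise arrays lay above all 3 sedentary arrays for 12 carriers and below them for 2, together 14 of 40, where 43.2% of all genes had groups that did not overlap (25% above and 18.2% below).

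These calls depended on single arrays and on the scaling. Leaving out any one of Exercise 1, Exercise 2, Exercise 3, Sedentary 2 or Sedentary 3 left 0 carriers called in limma, with 8 to 13 higher and 2 or 3 lower at an unadjusted p under 0.05, and between 0 and 1 call among all genes. The share of all genes at that unadjusted threshold was not counted, here or below, so such counts have no comparison. Without Sedentary 1, 7 carriers were called higher and 1 lower, and 6 of the 8 genes called on all arrays were among them. Of all genes tested, 13.9% were then called higher and 8.24% lower. Slc25a12 joined the higher calls and Slc25a28 left them, and the lower call was Slc25a5 and not Slc25a10. The second field of the array barcode was 1 for the 3 exercise arrays and Sedentary 1, and 2 for Sedentary 2 and Sedentary 3. Arrays that share this field are called a strip here, a name the sample labels do not give. Sedentary 1 was the sedentary array nearest to the exercise arrays for 24 of the 40 carriers (60%), against 49.85% of all genes tested. With the strip as a block, 0 carriers were called, with 5 higher and 1 lower at an unadjusted p under 0.05. The part of the strip in these differences was not tested beyond that.

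**Figure D1:**
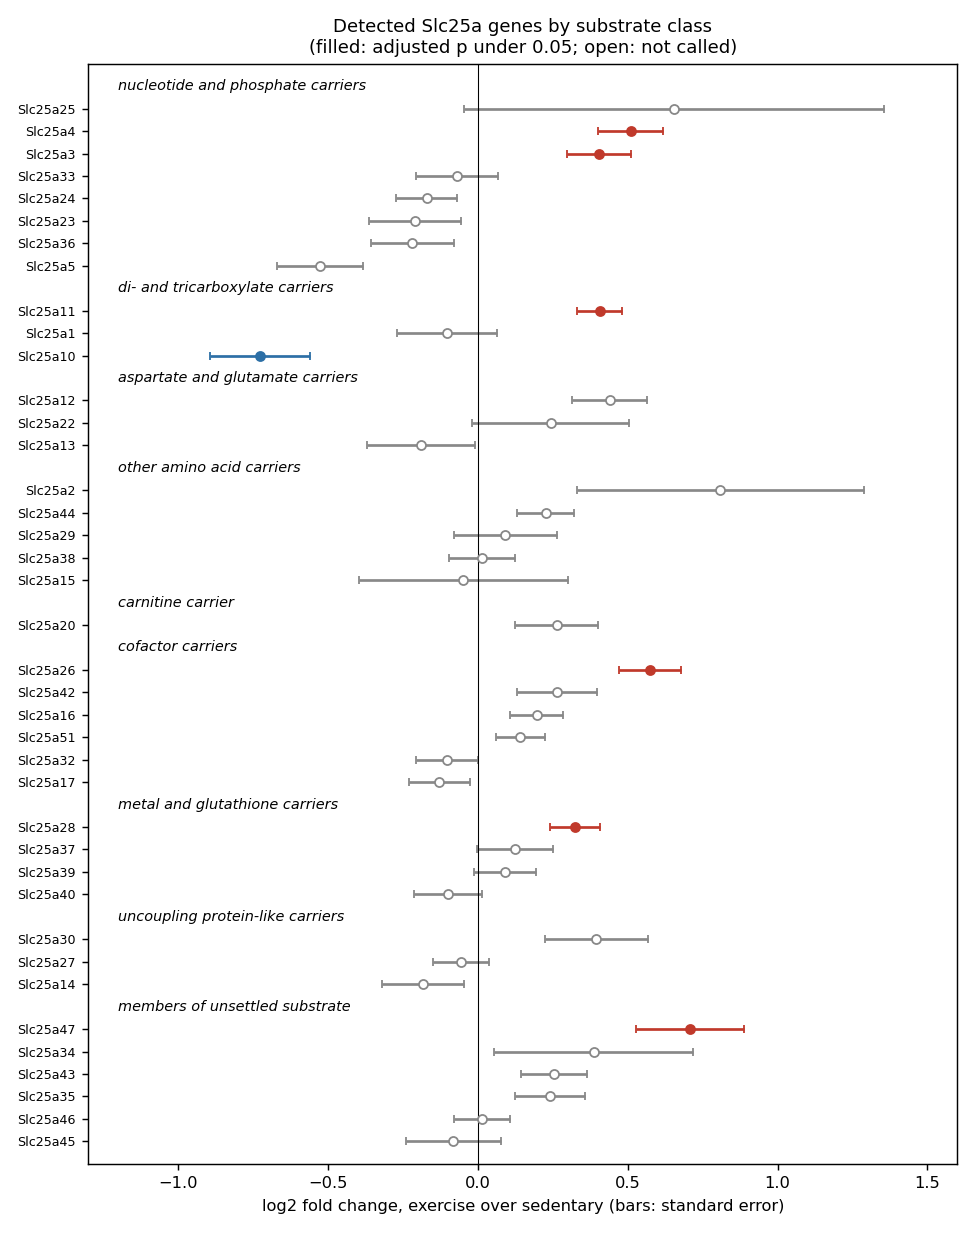
Log2 fold change, exercise over sedentary, of 39 detected Slc25a genes by substrate class on the horizontal axis, with bars of 1 standard error from limma. Filled points are 6 genes called higher and 1 called lower, Slc25a10, at an adjusted p under 0.05 with scaling to the array's 75th percentile, the values run from -0.73 to 0.81, and 19 positive differences among the 40 detected genes turn negative with no scaling.

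Nucleotide and phosphate carriers supply the ATP synthase and hand its product to the cytosol. Of 8 tested, 2 were called higher, 0 lower, and 5 of the 8 had a negative fold change. The shares over all genes, for this class and the classes below, were 11.5% called higher and 6.12% lower. Slc25a4, the ADP/ATP translocase that predominates in heart and skeletal muscle, had a log2 signal relative to the array's 75th percentile of 10.04, 10.08 and 10.03 on the exercise arrays and 9.72, 9.49 and 9.39 on the sedentary arrays. Every exercise array was higher than every sedentary array, and Sedentary 1 was the highest of the sedentary group. The difference was 0.51 (SE 0.11, limma adjusted p = 0.0311), a 1.42-fold higher signal, and the gene's other probe gave 0.75. Under quantile normalization the sign turned to -0.09. Against Sedentary 1, the array of the same strip, the difference was 0.32.

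Slc25a5, the translocase that is more widespread across tissues, had a negative difference. Its log2 signal was 3.73, 3.57 and 3.75 on the exercise arrays and 3.92, 4.35 and 4.35 on the sedentary arrays. All 3 exercise arrays were below all 3 sedentary arrays, with a log2 fold change of -0.53 (SE 0.14) that did not pass the threshold in limma (adjusted p = 0.0530). With the strip as a block, which is the difference from Sedentary 1 alone, it was -0.24. Of 19 alternatives 7 left the value as it was, and over the other 12 it was below 0, with -0.24 the nearest to 0. It passed the threshold in 7 of the 19.

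The ratio of Slc25a4 to Slc25a5 within an array is free of any constant factor common to that array, and it was formed after the values were seen. It is not free of a distortion that varies with signal, and Slc25a4 had the higher signal. Under quantile normalization both fold changes were negative, -0.09 for Slc25a4 and -0.69 for Slc25a5. Relative to its mean over the 6 arrays, the log2 ratio was 0.46, 0.66 and 0.43 on the exercise arrays and -0.04, -0.71 and -0.81 on the sedentary arrays. The groups could not overlap, since Slc25a4 had every exercise array above and Slc25a5 every exercise array below the sedentary arrays. The difference was 1.04 (2.05-fold). The exact two-sided permutation p was therefore fixed at 0.1, the smallest that 3 arrays against 3 can give, and is no test of the ratio. Of 19 alternatives, 8 cannot move the ratio and returned it unchanged. Over the other 11 it ran from 0.56 with the strip as a block to 1.28 with the probe of largest SD for each gene. Whether either probe also binds RNA of the other translocase was not tested.

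**Figure D2:**
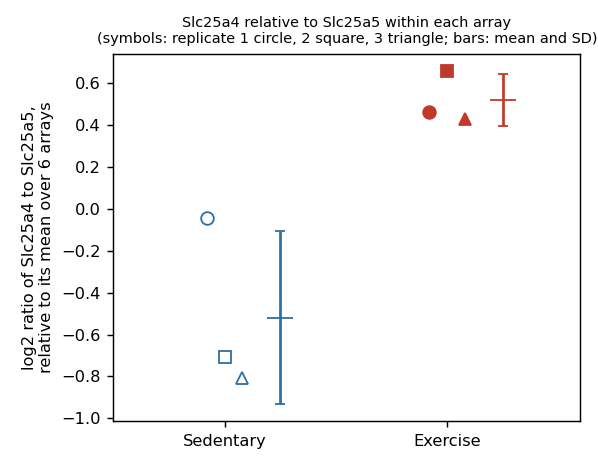
Log2 ratio of the Slc25a4 to the Slc25a5 signal on each array, relative to its mean over the 6 arrays, for the sedentary and exercise groups, with the mean and SD of 3 arrays beside the points. The exercise arrays lie between 0.43 and 0.66 and the sedentary arrays between -0.81 and -0.04, with Sedentary 1 the highest of its group.

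Slc25a3 imports the phosphate used by the ATP synthase. Its log2 signal was 6.91, 6.72 and 6.79 on the exercise arrays and 6.55, 6.39 and 6.28 on the sedentary arrays, again without overlap. The difference was 0.40 (SE 0.11, limma adjusted p = 0.0486), its other probe gave 0.41, and with no scaling between arrays it turned to -0.07. Under quantile normalization the difference was 0.14 and not called. Slc25a25, a calcium-regulated exchanger of ATP-Mg for phosphate, had one of the largest differences of the family at 0.65, but its SE was 0.70. Its log2 signal was 2.62, 1.09 and 4.04 on the exercise arrays and 1.91, 1.66 and 2.22 on the sedentary arrays. Exercise 3 stood above the rest and without it the difference was -0.07. Slc25a36, a pyrimidine nucleotide carrier, had a difference of -0.22 with overlapping groups. By the probes that stand for them, Slc25a23, Slc25a24 and Slc25a33 lay between -0.21 and -0.07, and none was called. The other probe of Slc25a23 was at -0.45 (limma adjusted p = 0.0566 over all probes).

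**Figure D3:**
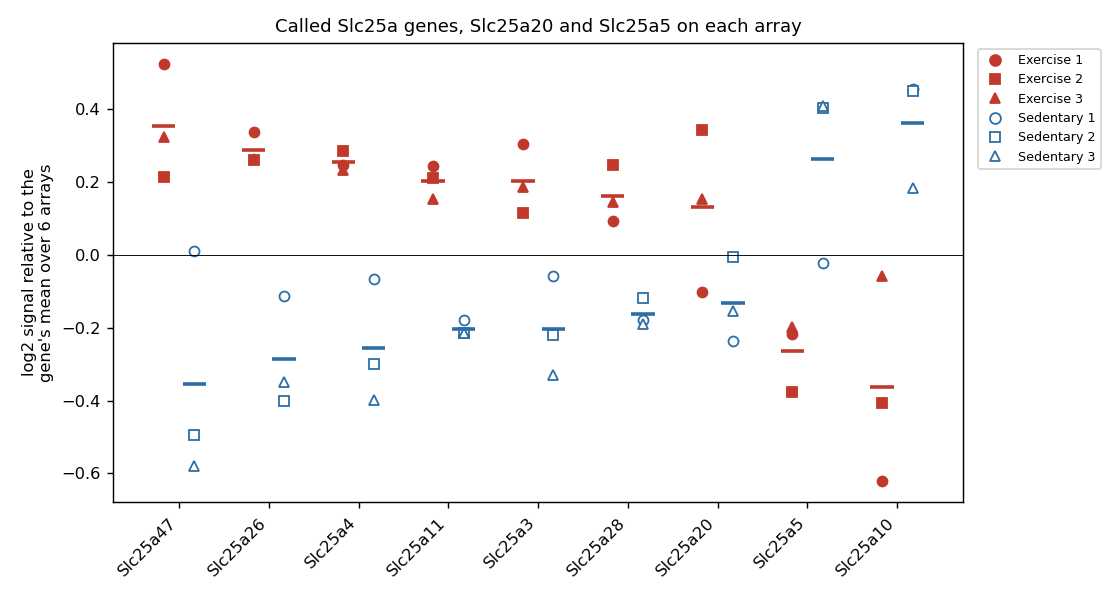
Log2 signal of 7 called carriers, Slc25a20 and Slc25a5 on each of the 6 arrays, relative to the gene's mean, with filled symbols for exercise, open symbols for sedentary and lines at group means. For every gene plotted except Slc25a20 the groups do not overlap with scaling to the 75th percentile, and the difference turns sign for Slc25a4 under quantile normalization and for Slc25a11, Slc25a3, Slc25a28 and Slc25a20 with no scaling between arrays.

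The di- and tricarboxylate carriers split. Slc25a11, the oxoglutarate-malate exchanger of the malate-aspartate shuttle, had a log2 signal of 7.31, 7.28 and 7.22 on the exercise arrays and 6.89, 6.85 and 6.86 on the sedentary arrays. The spread within each group was small against the gap between them, with SDs of 0.045 and 0.020. The difference was 0.41 (SE 0.076, limma adjusted p = 0.0260), its other probe gave 0.47, and it was 0.38 against Sedentary 1 alone. It turned to -0.07 with no scaling between arrays, and under quantile normalization it was 0.08 and not called.

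Slc25a10, the dicarboxylate carrier that exchanges malate and succinate for phosphate, is a carrier best known from liver and white fat. Its log2 signal was -3.25, -3.04 and -2.69 on the exercise arrays and -2.18, -2.18 and -2.45 on the sedentary arrays. The exercise arrays were all below the sedentary arrays. The difference was -0.73 (SE 0.17, limma adjusted p = 0.0365), and -0.20 after normexp background correction, where it was not called (limma adjusted p = 0.115). It lost the call in 12 of 19 alternatives. The difference was -0.82 against Sedentary 1 alone. Adipocyte markers had a median log2 fold change of -0.78, with 6 of 7 negative and only Lep called, higher, and their mean log2 signal was 3.02, 3.44 and 4.46 on the exercise arrays and 4.21, 4.38 and 4.03 on the sedentary arrays, so the groups overlapped. The part of fat tissue in the Slc25a10 difference was not tested. In such bulk tissue, fewer cells of a type and less RNA per cell cannot be told apart. Slc25a1, the citrate carrier, had probes at -0.10 and 0.02.

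The aspartate and glutamate carriers were not called by the probe that stands for each gene. Slc25a12, the calcium-stimulated aspartate-glutamate carrier of excitable tissues, had a log2 signal of 5.92, 5.89 and 5.70 on the exercise arrays and 5.59, 5.37 and 5.23 on the sedentary arrays. The groups did not overlap, and the difference of 0.44 (SE 0.12) missed the threshold in limma (adjusted p = 0.0582). Its other probes gave 0.44 and 0.27, and that at 0.44 had a limma adjusted p of 0.0474 over all probes. By the probes that stand for the genes, Slc25a12 and Slc25a5 are just outside the threshold and Slc25a3 is just inside. Slc25a13, the isoform of liver, was at -0.19 with overlap. The 3 probes of Slc25a22, a glutamate carrier, disagreed. The probe with the highest mean, which stands for the gene, was at 0.24 (SE 0.26), and the others were at 0.96 (SE 0.083) and -0.01 (SE 0.32). The probe at 0.96, well above background on all 6 arrays, had a limma adjusted p of 0.0239 over all probes, and with the probe of largest SD for each gene Slc25a22 was called higher.

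Slc25a20, which passes acylcarnitines inward for fatty acid oxidation, is the only carnitine carrier of the set and was not called. Its log2 signal was 1.41, 1.85 and 1.66 on the exercise arrays and 1.27, 1.51 and 1.36 on the sedentary arrays. Exercise 1 lay below Sedentary 2, so the groups overlapped, and the difference was 0.26 (SE 0.14, limma adjusted p = 0.218), turning to -0.21 with no scaling.

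Cofactor carriers move the coenzymes that matrix enzymes need. Slc25a26, the S-adenosylmethionine carrier that feeds matrix methylation, had a log2 signal of 2.78, 2.70 and 2.71 on the exercise arrays and 2.33, 2.04 and 2.09 on the sedentary arrays. The groups did not overlap, and the difference of 0.57 (SE 0.10, limma adjusted p = 0.0250) had the smallest adjusted p of the family, with other probes at 0.61 and 0.52.

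Over the 14 alternatives that changed its value, the difference of Slc25a26 ran from 0.10 with no scaling to 0.66 with array median scaling. Slc25a16 and Slc25a42, carriers linked to coenzyme A, were at 0.20 and 0.26, and Slc25a51, the NAD carrier, at 0.14, none of them called. The probes of Slc25a32, a folate and FAD carrier, were at -0.10 and 0.33, and Slc25a17, a peroxisomal member, was at -0.13.

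Of 4 iron and glutathione carriers, 1 was called. Slc25a28, mitoferrin 2, had a log2 signal of 2.78, 2.93 and 2.83 on the exercise arrays and 2.51, 2.57 and 2.50 on the sedentary arrays. The groups did not overlap, and the difference of 0.32 (SE 0.083, limma adjusted p = 0.0462) turned to -0.15 with no scaling. Under quantile normalization it was 0.23 and not called. Slc25a37, mitoferrin 1, had probes at 0.12, -0.001 and -1.10. The glutathione carriers Slc25a39 and Slc25a40 were at 0.09 and -0.10.

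The amino acid and uncoupling protein-like carriers held no call. Slc25a2, an ornithine carrier, had the largest positive difference of the family at 0.81, with SE 0.48 and an adjusted p of 0.267 in limma. It was well above background on 5 of 6 arrays, its groups overlapped, and against Sedentary 1 alone it was -0.13. After normexp background correction it was 0.48 and called higher (limma adjusted p = 0.0419), where 25% of all genes were called higher. The probes of Slc25a44, which carries branched-chain amino acids, were at 0.23 and -0.09. Slc25a30, Slc25a27 and Slc25a14, related in sequence to the uncoupling proteins, were at 0.40, -0.06 and -0.18. Slc25a30 was also called higher after normexp.

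Among members whose substrate is unsettled, 1 of 6 was called. Slc25a47, a carrier known mainly from liver, had a log2 signal of 0.06, -0.25 and -0.14 on the exercise arrays and -0.46, -0.96 and -1.05 on the sedentary arrays. The groups did not overlap, and the difference was 0.71 (SE 0.18, limma adjusted p = 0.0450), and 0.34 against Sedentary 1 alone. The probes of Slc25a46, an outer membrane protein tied to mitochondrial shape, were at 0.01 and -0.05. The 7 members that were not detected were Slc25a18, Slc25a21, Slc25a31, Slc25a41, Slc25a48, Slc25a53 and Slc25a54.

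**Figure D4:**
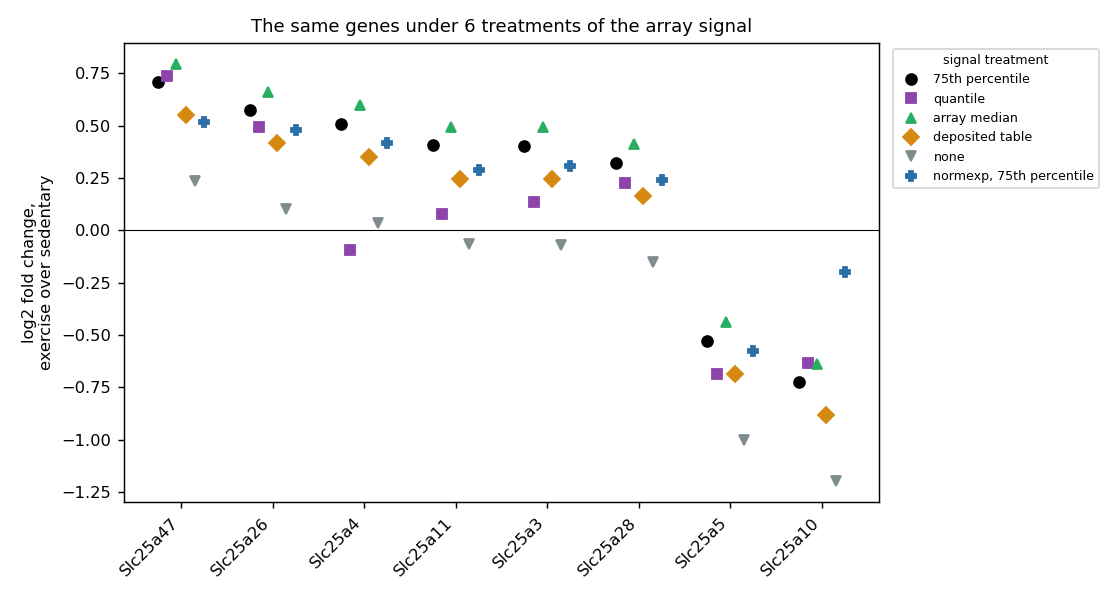
Log2 fold change, exercise over sedentary, of 7 called carriers and Slc25a5 under 6 treatments of the array signal, one symbol per treatment. With no scaling between arrays Slc25a11, Slc25a3 and Slc25a28 fall below 0, under quantile normalization Slc25a4 does, and Slc25a5 and Slc25a10 are below 0 under every treatment shown.

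Scaling moved the whole distribution. The 75th percentile of the signal was 251 to 257 on the exercise arrays and 310 to 384 on the sedentary arrays, so with no scaling the median of all genes shifted by -0.47. In the deposited value table it shifted by -0.16, and with no filter on dim probes by 0.15. With no scaling, 0 carriers were called higher and 15 of 40 lower, where 2.47% of all genes were called higher and 45.1% lower. The shift is the same for every gene, and it turned 19 of the 25 positive differences of the carriers negative, leaving 6. Of all calls over all genes, 65.2% were higher with scaling to the 75th percentile, against 5.19% with no scaling, 26.8% in the deposited table, 75.4% with array median scaling, 75.5% with normexp and 83.5% with no filter. Measured against the median of all genes, the median of the carriers was 0.11 higher with scaling to the 75th percentile, 0.06 with quantile normalization, 0.02 with normexp, and -0.08 with no filter on dim probes. The mean over the 40 carriers, each centred on its own mean, was 0.02, 0.03 and 0.15 on the exercise arrays and -0.01, -0.07 and -0.12 on the sedentary arrays.

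Genes that work with the carriers were taken as whole lists. Of 52 tested, 17 were called higher and 1 lower. The partner enzymes of the shuttles had 8 of 17 called higher and 0 lower, with a median of 0.31, against 11.5% of all genes called higher and a median of 0.03. Ckm, the cytosolic creatine kinase of muscle, had the largest difference at 1.50 (SE 0.22, limma adjusted p = 0.0234), with log2 signals of 8.85, 8.73 and 8.87 on the exercise arrays and 7.79, 7.28 and 6.90 on the sedentary arrays. The others called were Gpd1 and Gpd2 of the glycerol phosphate shuttle at 1.33 and 0.84, the mitochondrial creatine kinase Ckmt2 at 0.77, the carnitine acetyltransferase Crat at 0.66, the malate dehydrogenase Mdh2 at 0.53, the citrate synthase Cs at 0.48 and the aspartate aminotransferase Got1 at 0.34. Those 7 were named after their values were seen. Cpt1a, the liver-type carnitine palmitoyltransferase, had the lowest value at -0.31 and was not called. Ckm is also one of the 8 muscle fibre markers, of which 7 were called higher, with a median of 0.87, and 7 of 8 fast fibre markers were called higher. Of 8 slow or oxidative fibre markers 1 was called higher and 2 lower, with a median of -0.44. Of 8 denervation markers 6 were called lower and all 8 had every exercise array below every sedentary array, with a median of -1.28. The shares over all genes were 6.12% and 18.2%. Sedentary 1 was the sedentary array nearest to the exercise arrays for all 8 denervation and all 8 fast fibre markers. It was so for 7 of 8 muscle fibre markers, 4 of 8 slow or oxidative markers and 49.85% of all genes. The part of what these markers follow in the differences of the carriers and partner enzymes was not tested.

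The import pathway of the carriers had 3 of 10 called higher and 0 lower, against 11.5% and 6.12% of all genes. Timm13, a small chaperone of the intermembrane space, had log2 signals of 6.07, 6.07 and 5.99 on the exercise arrays and 5.68, 5.57 and 5.43 on the sedentary arrays. The groups did not overlap, with a difference of 0.49 (SE 0.095, limma adjusted p = 0.0271). Timm10b and Timm10, named after their values were seen, were at 0.42 and 0.36, and Agk, a subunit of the carrier translocase, was at -0.11 and not called.

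Among 20 transporters and channels of other families, 6 were called higher and 1 lower, against 11.5% and 6.12% of all genes. Mpc2 and Mpc1 form the pyruvate carrier of the inner membrane. Mpc2 had log2 signals of 7.17, 7.17 and 6.97 on the exercise arrays and 6.47, 6.25 and 6.07 on the sedentary arrays, a difference of 0.84 (SE 0.13, limma adjusted p = 0.0234). Mpc1 was at 0.61, the outer membrane channels Vdac3, Vdac1 and Vdac2 at 0.67, 0.61 and 0.47, and Smdt1, a part of the calcium uniporter, at 0.37. Sfxn4, of the sideroflexins, was the one called lower, with log2 signals of -0.91, -1.07 and -1.18 on the exercise arrays and -0.55, -0.37 and -0.45 on the sedentary arrays. Its difference was -0.60 (SE 0.11, limma adjusted p = 0.0242). Carriers of the family that bear other symbols had 0 of 5 called, with Ucp3 at 0.32, Mtch2 at 0.25, Ucp1 at -0.08 (SE 1.33), Mtch1 at -0.16 and Ucp2 at -0.25.

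**Figure D5:**
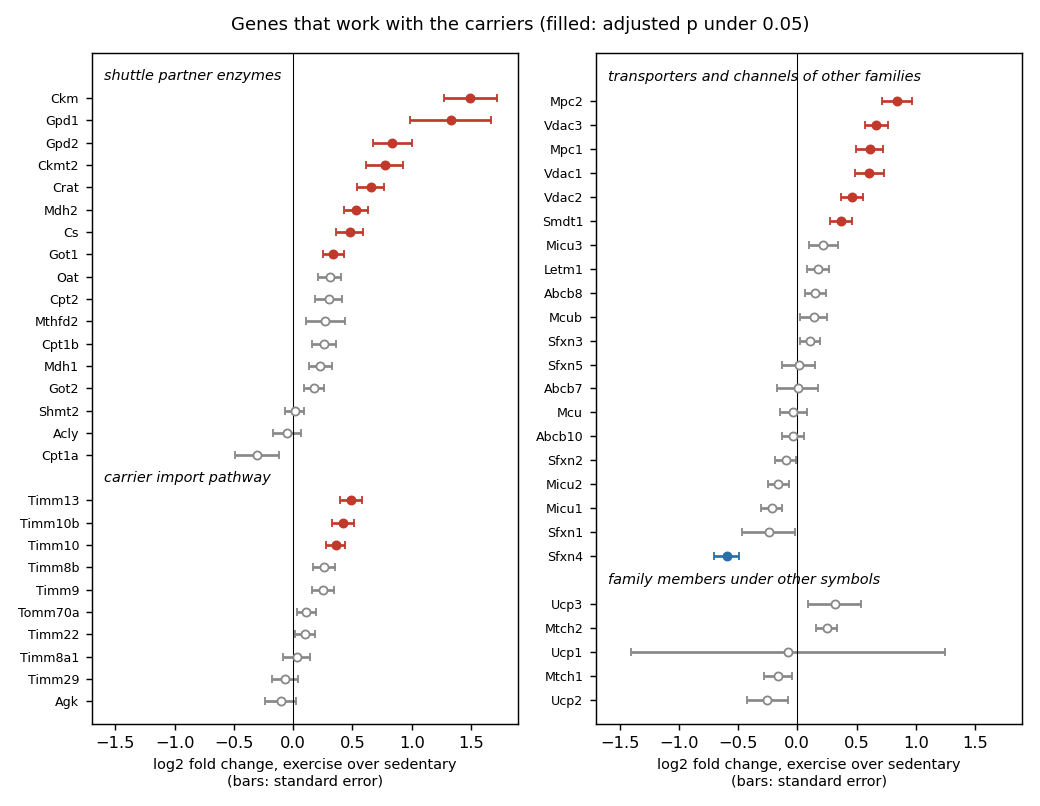
Log2 fold change, exercise over sedentary, of the 52 tested genes that work with the carriers, by list, with bars of 1 standard error from limma and filled points for an adjusted p under 0.05. Red points are the 17 genes called higher and the blue point is Sfxn4, called lower, at scaling to the 75th percentile, while with no scaling 4 are called higher and 19 lower and 26 of the 38 positive differences turn negative, among them the called Timm10, Timm10b, Vdac2, Smdt1 and Got1. Of all genes tested, 2.47% were called higher and 45.1% lower with no scaling.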

How the data were processed

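Quadriceps RNA of 6 AR97Q mice, 3 per group, was labelled with Cy3 and hybridised to a 1-colour Agilent mouse array. The authors deposited Feature Extraction files (version 12.1.0.3) of spot intensity, including the software's processed signal, with other flag columns, and a value table that equals the processed intensity times 1 factor per array (1.33 to 1.88). How the factor was set is not given in the sources used here. Per the deposited files, no spot was saturated and 54.6% to 59.9% of probes were well above background.

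Probes were named through RefSeq accessions (34566 of 56605 matched). From the deposited intensity, log2(processed signal) minus each array's 75th percentile was computed. Probes had to be flagged as well above background by at least 3 arrays, spots were averaged, and the probe with the highest mean stood for a gene. Groups were compared with limma 3.58.1 (R 4.3.3, lmFit and eBayes), with Benjamini-Hochberg adjustment over 25005 genes and transcripts, called at 0.05. On simulated data 92% of 200 genes changed by 2 on the log2 scale were recovered and 13 unchanged genes were called. The simulated noise was independent between arrays, with no strip effect. No carrier differed by more than 0.81, so the 92% does not cover changes of the size reported here. The number of arrays limits the precision. Genes named were the markers Slc25a4 and Slc25a20, the called carriers, the 3 largest rises and falls, and the largest of each companion list in each direction, with all probes where they disagreed in sign. Further genes were named after their values were seen. The members and lists were chosen with earlier results of these data known. Alternatives varied scaling, background correction, filter, probe choice, model, strip and left-out arrays. Promoters were searched in RefSeq windows of GRCm38.p6. One carrier is counted in the totals but is otherwise not reported here.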

Additional observations from a re-analysis of the deposited data

How the results depend on the processing

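The counts of carriers called higher and lower (7 and 1) became 1 and 1 with quantile normalization, 6 and 0 with array median scaling, 0 and 15 with no scaling, 0 and 2 in the deposited table, 11 and 1 with normexp, 8 and 2 with the filter on all 6 arrays or with eBayes using trend and robust, 0 and 0 with a fold minimum of 1 (log2) added, and 1 and 0 with an unpaired t-test after Benjamini-Hochberg (11 and 2 before it). Over all genes, the shares called higher and lower were 7.46% and 5.45% with quantile normalization, and 10.7% and 3.5% with array median scaling. They were 2.47% and 45.1% with no scaling, 4.69% and 12.8% in the deposited table, and 25% and 8.1% with normexp. They were 15% and 7.8% with the filter on all 6 arrays, 14.9% and 7.95% with trend and robust, and 1.75% and 0.816% by t-test. With the fold minimum, 2.78% were called in both directions together. With the strip as a block the counts of carriers were 0 and 0, against 0% and 0.012% of all genes. With the replicate number as a block they were 0 and 0, against 0% of all genes in each direction. At an unadjusted p under 0.05, 8 carriers were higher and 2 lower with that block, and the lowest adjusted p in limma was 0.0606. The share of all genes at unadjusted thresholds was not counted. Same-numbered arrays deviated together with correlations of 0.02, 0.08 and 0.04, against -0.11 to 0.07 for arrays of different number. With 3 arrays per group these values cannot settle whether the replicate numbers mark pairs. Leaving out 1 array gave 0 to 7 carriers called higher and 0 to 1 lower. Of all genes, 0% to 13.9% were then called higher and 0% to 8.24% lower. The lower call was Slc25a5 and not Slc25a10 with quantile normalization, with normexp and without Sedentary 1. With quantile normalization the higher call was Slc25a26. With normexp, Slc25a2, Slc25a12, Slc25a30 and Slc25a43 joined the higher calls. The counts of partner genes (17 and 1) became 4 and 2 with quantile normalization, 4 and 19 with no scaling, 5 and 2 in the deposited table, 2 lower with normexp, 2 and 0 with the fold minimum, 1 and 0 with an unpaired t-test, 0 and 0 with either block, and 0 to 16 higher and 0 to 1 lower with 1 array left out. The shares of all genes under the same alternatives are those given above beside the carriers. The carriers' median of 0.13 became 0.0399 with quantile normalization, 0.22 with array median scaling, 0.0982 with no filter, 0.0755 with the strip block, -0.34 with no scaling and -0.0252 in the deposited table, and 0.0885 to 0.163 with 1 array left out. The cause was not tested.

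With no scaling, 1 constant is taken from every gene, which turned 19 of the 25 positive carriers and 26 of the 38 positive partner genes negative. Among the 24 genes followed through the alternatives, those that changed sign were Slc25a4 (-0.0917, quantile), Slc25a11 (-0.0672), Slc25a3 (-0.0688), Slc25a28 (-0.15), Slc25a20 (-0.21), Mtch2 (-0.23) and Ucp3 (-0.16) with no scaling, Slc25a2 (-0.13), Mtch1 (0.0286), Agk (0.12) and Cpt1a (0.0120) with the strip block, and Slc25a25 (-0.0736) without Exercise 3 (up to 1.40 with 1 other array left out). Agk was also 0.0213 with normexp and ran from -0.218 to 0.0177 (without Sedentary 3) with 1 array left out, and Ucp1 was 0.00977 with array median scaling, 0.45 with normexp, 0.0120 without Exercise 2 and 0.512 without Sedentary 1, within -1.45 to 1.21 (without Exercise 3) with 1 array left out. The ratio of Slc25a4 to Slc25a5, whose alternatives were added after seeing the data, moved in 11 of the 19, from 0.564 to 1.28. The other 8 cannot move it.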
